A study of Danio rerio with 8 samples.

Results

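Zebrafish of 30 days post fertilization were the source of both cell populations compared, double-positive sst1.1+ins+ cells and ins+ cells, sorted from dissociated pancreas. The comparison rests on 5 of the 8 libraries in the series, 3 of sst1.1+ins+ cells and 2 of ins+ cells, chosen by their labelled group. The 3 remaining libraries, of sst1.1+ cells, served to estimate the spread between libraries and are given beside some values. All 3 groups came from fish of 1 genotype, with the transgene Tg(ins:BB1.0L) and a second one, TgBAC(sst1.1:memEGFP), under growth conditions labelled as normal. In these fish the insulin promoter drives a fluorescent reporter and a bacterial artificial chromosome of the somatostatin gene sst1.1 drives a membrane-bound EGFP, so a cell's group reflects reporter fluorescence at the sort and not hormone protein. Whether libraries of a group were made from different fish or sorts is not in the labels. The p-values therefore refer to the spread among these libraries alone, and that spread may be technical.

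Islets hold beta cells, which store and release insulin, and delta cells, which release somatostatin, a peptide that acts on neighbouring cells to restrain the release of other hormones. Both are secretory cells: they fold prohormones in the endoplasmic reticulum (ER), cut and pack them in dense granules with granin proteins, and release them by calcium-triggered exocytosis after ATP-sensitive potassium channels close. Cells that carry both hormones are studied as possible intermediates between the islet cell types. The question here is in which genes such cells differ from cells that carry the insulin reporter without the somatostatin one.

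Gene totals were 24234927 to 24504469 counts in the sst1.1+ins+ libraries, 19861081 and 16948429 counts in ins+ replicates 1 and 2, and 23425079 to 30374029 counts in the sst1.1+ libraries. With every library thinned to 16948429 counts, 15855 to 17503 genes had a count in the sst1.1+ins+ libraries and 14923 and 15522 in the ins+ libraries, so the ranges did not overlap. Spike-in ERCC RNA took 0.0145 to 0.0237% of the counts of sst1.1+ins+ libraries and 0.0416 and 0.0501% of those of ins+ libraries, again without overlap. Mitochondrially encoded genes took 3.49 to 4.14% and 3.45 to 3.49%. The part of the depth, gene number and spike-in differences in the results was not tested; counts thinned to that total gave 157 called genes, 126 higher and 31 lower, where the full counts gave 151. Because these are bulk samples, fewer cells of a type and less RNA per cell cannot be told apart.

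Of 16418 genes tested with edgeR's quasi-likelihood test, 151 (0.920%) passed a Benjamini-Hochberg adjusted p of 0.05 between sst1.1+ins+ and ins+ cells. Higher in sst1.1+ins+ cells were 124 genes (0.755%) and lower 27 (0.164%), with 1981 at an unadjusted p under 0.05. The median fold was 4.34 among the higher genes and 2.44 among the lower ones, and 117 of the higher and 22 of the lower genes differed at least 2-fold. All 151 had separate ranges of CPM (counts scaled to a library total of 1e6 after TMM scaling) in the 3 and 2 libraries, against 16.4% of all tested genes with every sst1.1+ins+ library above both ins+ libraries and 14.0% with every one below. The median log2 fold change of all tested genes was 0.08. The split of the calls depended on the tool: limma-voom with quality weights called 177 genes, 69 higher and 108 lower. DESeq2 called 771 of the 16418, 560 higher and 211 lower. The counts by unadjusted p, DESeq2 and voom given for gene lists below are to be read against these totals, and not against the edgeR shares. Leaving out sst1.1+ins+ replicate 1, 2 or 3 gave 59, 90 or 75 calls, and leaving out sst1.1+ replicate 1, 2 or 3 gave 136, 94 or 190. Without ins+ replicate 1 or 2, which left 1 ins+ library, the median log2 fold change of all tested genes was 0.261 or 0.179. Of the 124 higher genes 46 kept their call in each of the 8 fits that left out 1 library, and of the 27 lower genes 1 did, the synuclein gene SNCG (2 of 2).

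**Figure D1:**
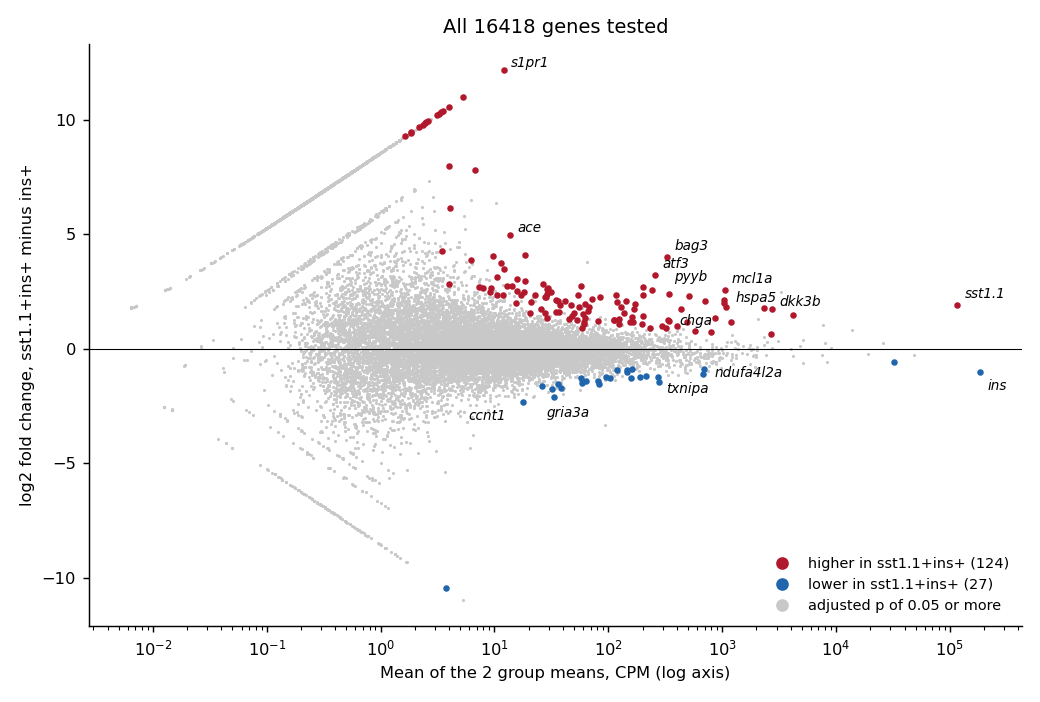
The log2 fold change of sst1.1+ins+ over ins+ cells (vertical axis) is plotted against the mean of the 2 group means in CPM (log axis) for each of the 16418 genes tested, with the 124 genes called higher in red, the 27 called lower in blue and the others in grey. Genes with 0 counts in one group form the slanted lines at the top and bottom, where the fitted value depends on a prior count and gives no fold. Most called genes lie above the zero line, and sst1.1 and ins lie at the far right.

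The transcripts behind the sort separated the groups in the direction of their labels. The EGFP transcript, left out of totals and tests, was at 3376, 3657 and 3199 CPM in sst1.1+ins+ replicates 1, 2 and 3, against 198 and 279.8 CPM in ins+ replicates 1 and 2, and averaged 7523 ± 944 CPM in sst1.1+ cells (SD, n = 3). The sst1.1 transcript itself was at 156753, 210063 and 181341 CPM in sst1.1+ins+ libraries and at 54993 and 43252 CPM in ins+ libraries. The sort used the sst1.1 reporter, so a difference in this transcript is not independent of the choice of groups. The transcript was 3.72-fold higher (log2 fold change 1.90 ± 0.15 (SE), adjusted p = 9.88e-05), and its call held in all 8 fits that left out 1 library. It took 16.7 to 20.2% of the counts of sst1.1+ins+ libraries and 5.56 and 4.35% of those of ins+ libraries, so that the ins+ libraries also held transcripts of this somatostatin gene.

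The ins transcript, which encodes insulin, was at 118140.0, 115462 and 130687 CPM in sst1.1+ins+ libraries, against 235511 and 256894 CPM in ins+ libraries and 997 ± 329 CPM in sst1.1+ cells (SD, n = 3). It took 11.1 to 13.1% of the counts of sst1.1+ins+ libraries and 23.8 and 25.8% of those of ins+ libraries. The ranges were well apart, and ins fell 2.03-fold (log2 fold change -1.02 ± 0.21, adjusted p = 0.0497 in edgeR). That call stood at the threshold. It was lost without sst1.1+ins+ replicate 1 (adjusted p = 0.214), 2 (0.178) or 3 (0.133) and without sst1.1+ replicate 3 (0.0637). The call was also lost when either ins+ library was left out. Scaling by totals without hormone and mitochondrial genes lost it too.

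Of 6 other islet and gut hormone genes tested, 1 rose (16.7%, against 0.755% of all genes). This was pyyb, which encodes a peptide of the neuropeptide Y family. It was at 1284, 522 and 730.3 CPM in sst1.1+ins+ libraries and at 153 and 189.8 CPM in ins+ libraries, 4.94-fold higher (adjusted p = 0.00485), with 1332 ± 59.7 CPM in sst1.1+ cells. The other somatostatin genes did not pass: sst1.2 averaged 27999.6 ± 11022 CPM in sst1.1+ins+ cells and 23653 ± 348 CPM in ins+ cells (adjusted p = 0.843), and sst2 17438 ± 9899 and 20758 ± 31.3 CPM (0.915). Their values varied more among the sst1.1+ins+ libraries than between the groups, with replicate 2 highest for both genes. None of 4 alpha-cell genes passed in edgeR (2 had an unadjusted p under 0.05, DESeq2 called 1 and voom 0), although the glucagon genes had separate ranges. Here gcga was at 16062, 16288 and 20198 CPM in sst1.1+ins+ libraries against 11418 and 8437 CPM in ins+ libraries (log2 fold change 0.82 ± 0.26, adjusted p = 0.210), and gcgb averaged 10309 ± 3106 against 5072 ± 3055 CPM (adjusted p = 0.290).

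Transcripts of the minor endocrine cell types were present in uneven amounts. The incretin gene gip was at 5057, 11524 and 39.8 CPM in sst1.1+ins+ replicates 1, 2 and 3 and at 1931 and 44.2 CPM in ins+ replicates 1 and 2. The ghrelin gene ghrl was at 49.8, 251 and 3946 CPM in sst1.1+ins+ libraries and at 4791 and 106 CPM in ins+ libraries. Both thus spanned over an order of magnitude within each group, and their groups overlapped (adjusted p = 0.576 for gip and 0.929 for ghrl). The libraries that were high in one of these genes were not the same within the sst1.1+ins+ group, where replicate 3 was lowest for gip and highest for ghrl.

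**Figure D2:**
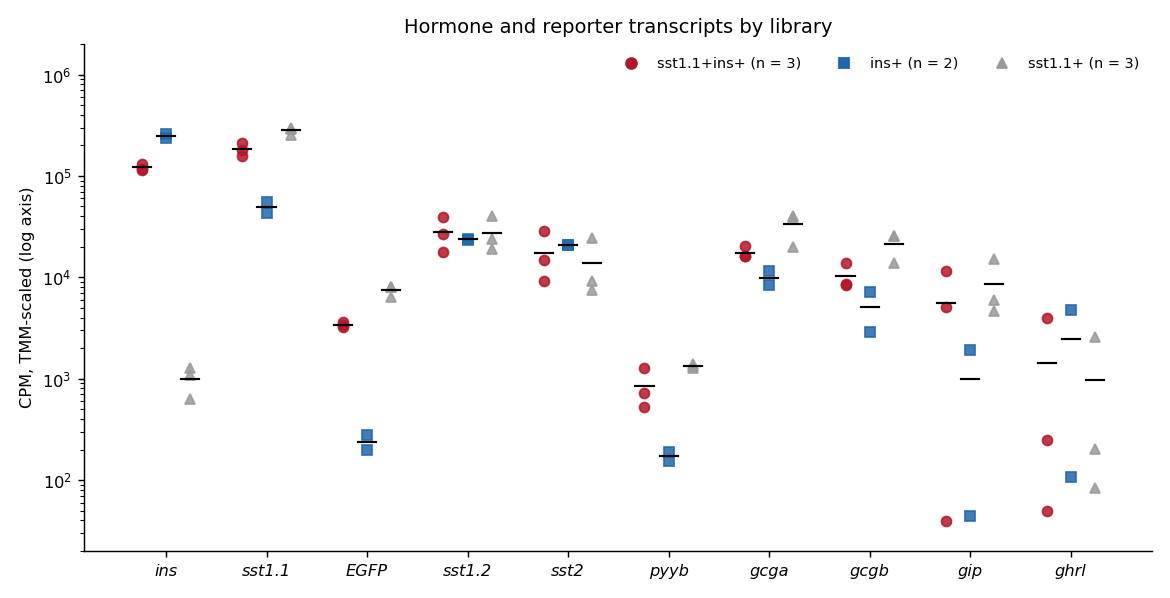
Each point is 1 library, with its transcript level in CPM (TMM-scaled, log axis) for 9 hormone genes and the EGFP reporter, and the bars are group means; circles are sst1.1+ins+ (n = 3), squares ins+ (n = 2) and triangles sst1.1+ (n = 3). The sst1.1+ins+ libraries lie below the ins+ libraries for ins and above them for sst1.1, EGFP, pyyb and the glucagon genes, while sst1.2, sst2, gip and ghrl overlap.

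Of 15 genes for prohormone processing and granules, 3 rose (20%, against 0.755% of all genes) and none fell in edgeR's test. The 3 encode granins, acidic proteins that help load dense-core granules. At an unadjusted p under 0.05, 5 of the list were higher and 6 lower, while DESeq2 called 4 higher and 3 lower and voom 3 and 3. The secretogranin gene scg2a was at 193, 236 and 192 CPM in sst1.1+ins+ libraries against 70.32 and 68.8 CPM in ins+ libraries, 2.97-fold higher (log2 fold change 1.57 ± 0.21, adjusted p = 0.00375). The chromogranin A gene chga averaged 477 ± 34.2 CPM in sst1.1+ins+ cells and 198 ± 29.9 CPM in ins+ cells (SD, n = 3 and 2), 2.41-fold higher (adjusted p = 0.00388). The paralog scg2b averaged 995 ± 19.9 against 604 ± 59.23 CPM, 1.65-fold higher (adjusted p = 0.0267). In sst1.1+ cells scg2a, chga and scg2b averaged 246, 733 and 1451 CPM, above their sst1.1+ins+ means. The 3 genes had separate ranges, but the call of scg2b was lost in 6 of the 8 fits without 1 library (adjusted p up to 0.145, without ins+ replicate 1), and that of chga without ins+ replicate 2 (0.0544). VGF, a granin-like prohormone gene, missed the threshold with 53.7 ± 9.90 against 22.2 ± 3.82 CPM (adjusted p = 0.0702).

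The enzymes that cut prohormones did not follow the granins past the test. The convertase gene pcsk1 averaged 255 ± 72.6 CPM in sst1.1+ins+ cells and 222 ± 37.3 CPM in ins+ cells (adjusted p = 0.833). Its relative pcsk2 averaged 87.5 ± 40.1 and 48.5 ± 6.62 CPM (adjusted p = 0.364). The carboxypeptidase gene cpe, which trims the cut peptides, stood slightly lower in all sst1.1+ins+ libraries at 2213 ± 77.2 against 2678 ± 5.14 CPM (log2 fold change -0.28 ± 0.11, adjusted p = 0.339). Across the list 7 of 15 log2 fold changes were positive, with a median of -0.11, against 0.08 over all genes. In 4 of the 15 every sst1.1+ins+ library was above both ins+ libraries and in 6 below, against 16.4% and 14.0% of all genes.

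Of 8 delta-cell genes tested, 2 rose (25%, against 0.755% of all genes). These were sst1.1, whose reporter was used for the sort, and dkk3b, a gene of the Dickkopf family of secreted proteins. At an unadjusted p under 0.05, 5 of the list were higher and 0 lower, while DESeq2 called 5 higher and voom 2. The dkk3b transcript was at 3805, 4614 and 4265 CPM in sst1.1+ins+ libraries and at 1537 and 1035 CPM in ins+ libraries, with 6422 ± 128 CPM in sst1.1+ cells. It was 3.29-fold higher (log2 fold change 1.72 ± 0.17, adjusted p = 0.000499) and its call held in all 8 fits without 1 library. HHEX, a homeobox gene needed for delta-cell identity in mouse, was at 31.2, 34.6 and 32.0 CPM in sst1.1+ins+ libraries and at 16.3 and 12.8 CPM in ins+ libraries. The ranges were apart, yet the adjusted p was 0.0952. The ETS factor gene fev averaged 109.8 ± 7.52 against 57.0 ± 6.12 CPM (log2 fold change 0.95 ± 0.24, adjusted p = 0.113), also with separate ranges.

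None of 32 endocrine transcription factor genes passed edgeR's test in either direction, and their median log2 fold change was -0.28. At an unadjusted p under 0.05, 1 was higher and 7 were lower, while DESeq2 called 1 higher and 2 lower and voom 0. Of all 16418 genes, 1981 were under that p, 771 were called by DESeq2 and 177 by voom. Every sst1.1+ins+ library was above both ins+ libraries for 4 of the 32 and below for 11, against 16.4% and 14.0% of all genes. Of the beta-cell list, ins, whose promoter drives a reporter used for the sort, was the 1 gene called of 18 tested. This call was a fall (5.56%, against 0.164% of all genes). The list median was -0.23, and DESeq2 and voom called 3 lower each. In 3 of the 18 every sst1.1+ins+ library was above both ins+ libraries and in 9 below. Among the 9 were 3 factor genes that did not pass: mnx1 averaged 34.7 ± 9.25 against 62.2 ± 2.24 CPM (adjusted p = 0.262), nkx6.2 44.7 ± 3.20 against 104 ± 38.9 CPM (0.482) and MAF (2 of 2) 18.9 ± 4.36 against 62.6 ± 14.6 CPM (0.211). In sst1.1+ cells these 3 genes were at 6.75 ± 1.001, 0.894 ± 0.905 and 2.41 ± 1.74 CPM. The double-positive libraries therefore carried transcripts of all 3 factors, at levels below the ins+ libraries and above the sst1.1+ mean.

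Factors shared by islet cells lay on either side. The master regulator gene pdx1 averaged 1475 ± 30.3 CPM in sst1.1+ins+ cells and 1227 ± 91.4 CPM in ins+ cells (log2 fold change 0.27 ± 0.16, adjusted p = 0.535). The pan-endocrine factor gene neurod1 averaged 288 ± 41.4 and 371 ± 12.2 CPM (adjusted p = 0.409), and isl1 333 ± 40.5 and 252 ± 56.6 CPM (0.461). The paired-box gene pax6b was lower in each sst1.1+ins+ library, at 680.2 ± 85.5 against 986 ± 163 CPM (adjusted p = 0.208). The forkhead factor gene foxa2 was higher in each, at 64.7 ± 9.74 against 33.03 ± 8.62 CPM (adjusted p = 0.103), and foxa3 lower in each, at 91.6 ± 15.6 against 154.8 ± 3.11 CPM (0.128). The alpha-cell factor gene arxa stayed low, at 6.55 ± 2.94 and 2.88 ± 0.583 CPM (adjusted p = 0.449). An adjusted p above 0.05 does not show that these levels were equal.

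Of 44 genes of the immediate early response, which cells switch on within minutes of a stimulus, 9 rose and none fell in edgeR's test. The 9 made 20.5% of the list, against 0.755% of all genes called higher. Every sst1.1+ins+ library was above both ins+ libraries for 18 of the 44 and below for 5, against 16.4% and 14.0% of all genes. The list median of the log2 fold changes was 0.70, against 0.08 over all genes. The stress-induced factor gene atf3 was at 539.9, 407 and 445 CPM in sst1.1+ins+ libraries and at 60.4 and 40.4 CPM in ins+ libraries, 9.20-fold higher (log2 fold change 3.20 ± 0.22, adjusted p = 3.24e-05). The AP-1 gene jun was at 377, 248 and 421 CPM against 59.11 and 48.8 CPM, 6.46-fold higher (adjusted p = 0.000195), and its relative junbb was 5.26-fold higher (0.000248). The survival gene mcl1a, a BCL2 family member, was at 1796, 1682 and 1921 CPM against 273 and 333 CPM, 5.93-fold higher (adjusted p = 3.24e-05). For each of these 4 genes the lowest sst1.1+ins+ library lay far above the highest ins+ library.

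The other 5 immediate early genes called were ier2, ZFP36, egr1, fosl1a and EGR4, by 2.27- to 5.10-fold. ZFP36, whose protein speeds the decay of mRNAs, averaged 236 ± 58.0 against 89.5 ± 1.604 CPM (adjusted p = 0.00854). The zinc-finger gene egr1 averaged 199.7 ± 69.2 against 57.3 ± 26.4 CPM (adjusted p = 0.0251). The call of ier2 held in all 8 fits without 1 library, while those of ZFP36, egr1, fosl1a and EGR4 were lost in 1, 4, 6 and 6 of them. In sst1.1+ cells the means of atf3, jun, mcl1a and junbb were 966, 708, 2792 and 720.2 CPM. The list's summed level was 8384 to 8682 CPM in sst1.1+ins+ libraries, 4291 and 4688 CPM in ins+ libraries and 10536.5 to 12084 CPM in sst1.1+ libraries. DESeq2 called 14 of the list higher and 2 lower, and voom 10 and 1.

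Of 37 heat shock and co-chaperone genes tested 11 rose (29.7%, against 0.755% of all genes) and none fell in edgeR's test, with a list median of 0.61. Every sst1.1+ins+ library was above both ins+ libraries for 18 of the 37 and below for 2, against 16.4% and 14.0% of all genes. DESeq2 called 13 higher and voom 10, with 0 lower. The co-chaperone gene bag3, which links HSP70 to autophagy, was at 655, 523 and 666 CPM in sst1.1+ins+ libraries and at 28.7 and 48.1 CPM in ins+ libraries, 16.03-fold higher (log2 fold change 4.002 ± 0.26, adjusted p = 3.24e-05). The HSP110 family gene hspa4a averaged 410.5 ± 46.8 against 70.33 ± 10.6 CPM, 5.84-fold higher (adjusted p = 3.24e-05), and the HSP90 gene hsp90aa1.2 averaged 3608 ± 215 against 1063 ± 0.735 CPM, 3.39-fold higher (adjusted p = 3.24e-05). Each sst1.1+ins+ library was above both ins+ libraries for all 11.

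The inducible HSP70 genes hsp70.1, hsp70.2, hsp70.3 and hsp70l were 2.24- to 4.17-fold higher, although reads of such near-identical copies can be split between them, as can those of hsp90aa1.1 and hsp90aa1.2. Of these, hsp70l was at 7457, 4712 and 6185 CPM in sst1.1+ins+ libraries and at 2109 and 2258 CPM in ins+ libraries (log2 fold change 1.49 ± 0.17, adjusted p = 0.00126). The HSP40 gene dnajb1b averaged 1671 ± 353 against 414 ± 13.3 CPM, 4.04-fold higher (adjusted p = 0.00126). The constitutive HSP70 gene hspa8 and hsph1 were the least secure of the list, with calls lost in 7 and 6 of the 8 fits without 1 library. The list's sum was 21206 to 25725 CPM in sst1.1+ins+ libraries, 10260.0 and 10310.1 CPM in ins+ libraries and 34697 to 36491 CPM in sst1.1+ libraries.

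Of 52 ER chaperone and unfolded protein response genes 7 rose (13.5%, against 0.755% of all genes) and none fell in edgeR's test. The list median was 0.41. Its summed level was 6842 to 7548 CPM in sst1.1+ins+ libraries, 4189 and 4434 CPM in ins+ libraries and 8388 to 10482 CPM in sst1.1+ libraries. Every sst1.1+ins+ library was above both ins+ libraries for 24 of the 52 and below for 4, against 16.4% and 14.0% of all genes. The ER chaperone BiP is encoded by hspa5, which was at 1862, 1628 and 1588 CPM in sst1.1+ins+ libraries against 397 and 384 CPM in ins+ libraries, 4.33-fold higher (log2 fold change 2.11 ± 0.18, adjusted p = 0.000195). The ER HSP90 gene hsp90b1 averaged 672 ± 87.5 against 203 ± 52.9 CPM, 3.32-fold higher (adjusted p = 0.00344). The calls of these 2 genes held in all 8 fits without 1 library. The others were herpud1, which acts in ER-associated degradation (4.35-fold), the factor gene ddit3 (2.83-fold), pdia4 (2.40-fold), hyou1 (2.33-fold) and the factor gene xbp1 (2.005-fold), each lost in 3 to 6 of those fits. Without sst1.1+ins+ replicate 1 the list had 2 calls, without sst1.1+ins+ replicate 2, sst1.1+ replicate 2 or ins+ replicate 2 it had 3, and without ins+ replicate 1 it had 4. With the 2 groups fitted alone it had 3 calls, and DESeq2 called 12 higher and 2 lower and voom 5 higher. With the 27 called members of the immediate early, heat shock and ER lists set aside, 124 of the 151 called genes were left.

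**Figure D3:**
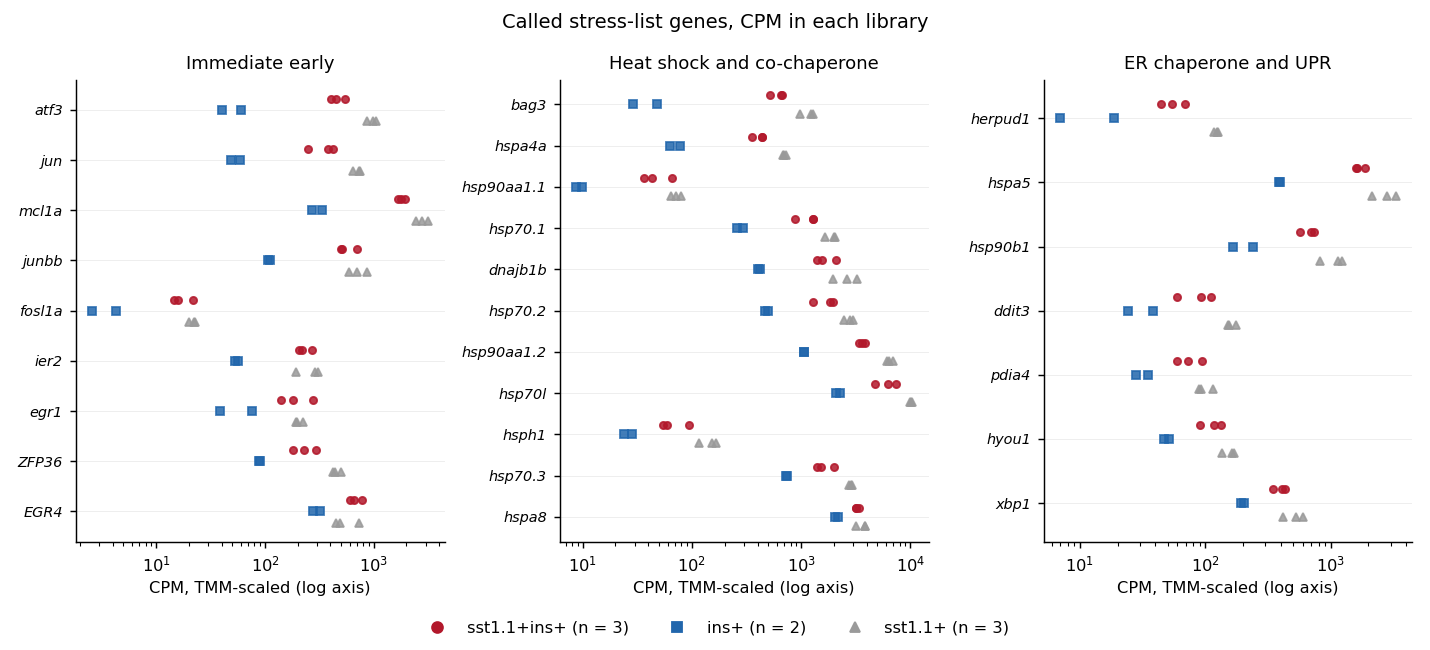
CPM of each library (TMM-scaled, log axis) is plotted for the 9 immediate early, 11 heat shock and 7 ER chaperone genes called, with circles for sst1.1+ins+ (n = 3), squares for ins+ (n = 2) and triangles for sst1.1+ (n = 3). In every row the 3 sst1.1+ins+ points lie to the right of both ins+ points.

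The 15 largest rises among genes with a mean of at least 20 CPM included bag3, atf3 and jun. The angiotensin-converting enzyme gene ace was at 24.4, 17.5 and 37.7 CPM in sst1.1+ins+ libraries and at 0.498 and 1.23 CPM in ins+ libraries, 30.9-fold higher (log2 fold change 4.95 ± 0.64, adjusted p = 0.00344). The RNA-binding protein gene rbpms2b averaged 21.0 ± 4.22 against 1.58 ± 0.754 CPM, 13.4-fold higher (adjusted p = 0.00201). The chitinase family gene chia.6 was at 21.6, 23.4 and 21.7 CPM against 2.94 and 1.06 CPM, 11.03-fold higher (adjusted p = 0.00235). The tyrosylprotein sulfotransferase gene tpst1, whose enzyme modifies secreted proteins, was at 95.4, 103 and 103 CPM against 20.3 and 10.3 CPM, 6.57-fold higher (adjusted p = 0.000616). In sst1.1+ cells ace, rbpms2b, chia.6 and tpst1 averaged 37.6, 35.9, 53.1 and 167 CPM, above their sst1.1+ins+ means. Separate ranges were a condition of entry to the 15, and the calls of these 4 genes held in all 8 fits without 1 library. With voom tpst1 alone of the 4 was called, while ace (adjusted p = 0.252), rbpms2b (0.131) and chia.6 (0.101) were not.

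Several others of the 15 were less steady. The actin-binding transgelin gene tagln2 averaged 32.7 ± 14.4 against 4.22 ± 3.90 CPM (adjusted p = 0.0474), and the stathmin family gene stmn4 49.7 ± 27.2 against 8.08 ± 2.76 CPM (0.0379), and each lost its call in 6 of the 8 fits. The receptor gene gfra1a, whose protein binds ligands of the GDNF family, averaged 24.7 ± 9.16 against a mean of 3.75 CPM, 6.61-fold higher (adjusted p = 0.0133), and lost it in 2. The arginase gene arg2 averaged 50.6 ± 8.60 against 8.15 ± 3.48 CPM, 6.19-fold higher (adjusted p = 0.00854), and lost it without ins+ replicate 2 (0.0606) and with voom (0.0966). The gene fam46bb was 7.14-fold higher (adjusted p = 0.0133) and lost its call in 3 fits.

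For 15 of the 124 higher genes both ins+ libraries held 0 counts. Their folds are lower bounds for group means, the sst1.1+ins+ mean over the mean of a floor of 3 counts per library. That floor corresponds to 0.150 and 0.176 CPM in the ins+ libraries. Floors cover counting error only. These 15 genes passed the expression filter only through their counts in sst1.1+ins+ or sst1.1+ libraries, so their p-values and calls carry that limit. The receptor gene s1pr1, for the lipid sphingosine 1-phosphate, was at 36.7, 31.7 and 4.08 CPM in sst1.1+ins+ libraries, at least 148-fold higher (adjusted p = 0.00537), with 71.4 ± 10.9 CPM in sst1.1+ cells. Its call held in all 8 fits without 1 library and was lost with voom (adjusted p = 0.310). The level of s1pr1 in sst1.1+ins+ replicate 3 was several-fold below that of the other 2 libraries, so the bound from the mean does not hold for that library alone. The claudin gene cldnh, for a tight-junction protein, was at 5.07, 3.74 and 5.28 CPM, at least 28.8-fold higher (adjusted p = 0.00878), and lost its call with voom and with the 2 groups fitted alone (0.0674). The Notch receptor gene notch1b was at 5.18, 5.31 and 4.58 CPM, at least 30.9-fold higher (adjusted p = 0.0173), and lost its call in 4 of the 8 fits.

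The falls were smaller, and among the 15 largest most calls were insecure. SNCG (2 of 2), for a gamma-synuclein, was at 112, 150.4 and 177 CPM in sst1.1+ins+ libraries and at 386 and 427 CPM in ins+ libraries, 2.78-fold lower (log2 fold change -1.47 ± 0.20, adjusted p = 0.00454), with 46.0 ± 4.78 CPM in sst1.1+ cells. It kept its call in all 8 fits that left out 1 library. The AMPA-type glutamate receptor gene gria3a was at 9.63, 13.7 and 14.3 CPM against 44.8 and 62.6 CPM, 4.28-fold lower (adjusted p = 0.0155), and lost its call in 4 fits. Separate ranges were a condition for choosing both genes, and gria3a averaged 3.29 ± 0.553 CPM in sst1.1+ cells.

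The cyclin T gene ccnt1, a partner of the kinase that releases paused RNA polymerase, averaged 5.87 ± 0.487 against 29.7 ± 11.8 CPM, 5.05-fold lower (adjusted p = 0.0329). The splicing factor gene srsf6a averaged 14.5 ± 2.26 against 49.7 ± 5.63 CPM, 3.42-fold lower (adjusted p = 0.0488). Their calls were lost in 5 and 6 of the 8 fits. PKIB (2 of 2), for an inhibitor of protein kinase A, averaged 42.3 ± 10.2 against 123 ± 37.8 CPM, 2.90-fold lower (adjusted p = 0.0251), and the lipid kinase gene pi4kb 33.5 ± 6.69 against 82.4 ± 3.13 CPM, 2.46-fold lower (0.0251), with calls lost in 4 fits each.

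The gene bsg, which encodes the transporter partner basigin, was at 26.8, 35.7 and 28.3 CPM in sst1.1+ins+ libraries and at 79.1 and 93.1 CPM in ins+ libraries, 2.85-fold lower (adjusted p = 0.0146). The cystathionine beta-synthase gene cbsb averaged 35.0 ± 7.42 against 93.1 ± 11.3 CPM (adjusted p = 0.0432), and gnpda2, for a glucosamine-6-phosphate deaminase, 18.1 ± 2.70 against 53.5 ± 3.24 CPM (0.0251). These 3 lost their calls in 3, 7 and 5 of the 8 fits. The members shisa4 and kiaa1549la were 3.06- and 2.34-fold lower, and the call of shisa4 was lost in all 8. The rest of the 15 largest falls, slc7a8b, scn3b, rpl22l1 and txnipa, are given with their gene lists below. A single lower gene, the adducin gene add2, was at 0 counts in all 3 sst1.1+ins+ libraries against 3.39 and 11.5 CPM in ins+ libraries. By the ins+ mean over the floor add2 was at least 60.8-fold lower (adjusted p = 0.0450, lost in 7 fits). It passed the expression filter only through its counts in libraries of the other groups.

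**Figure D4:**
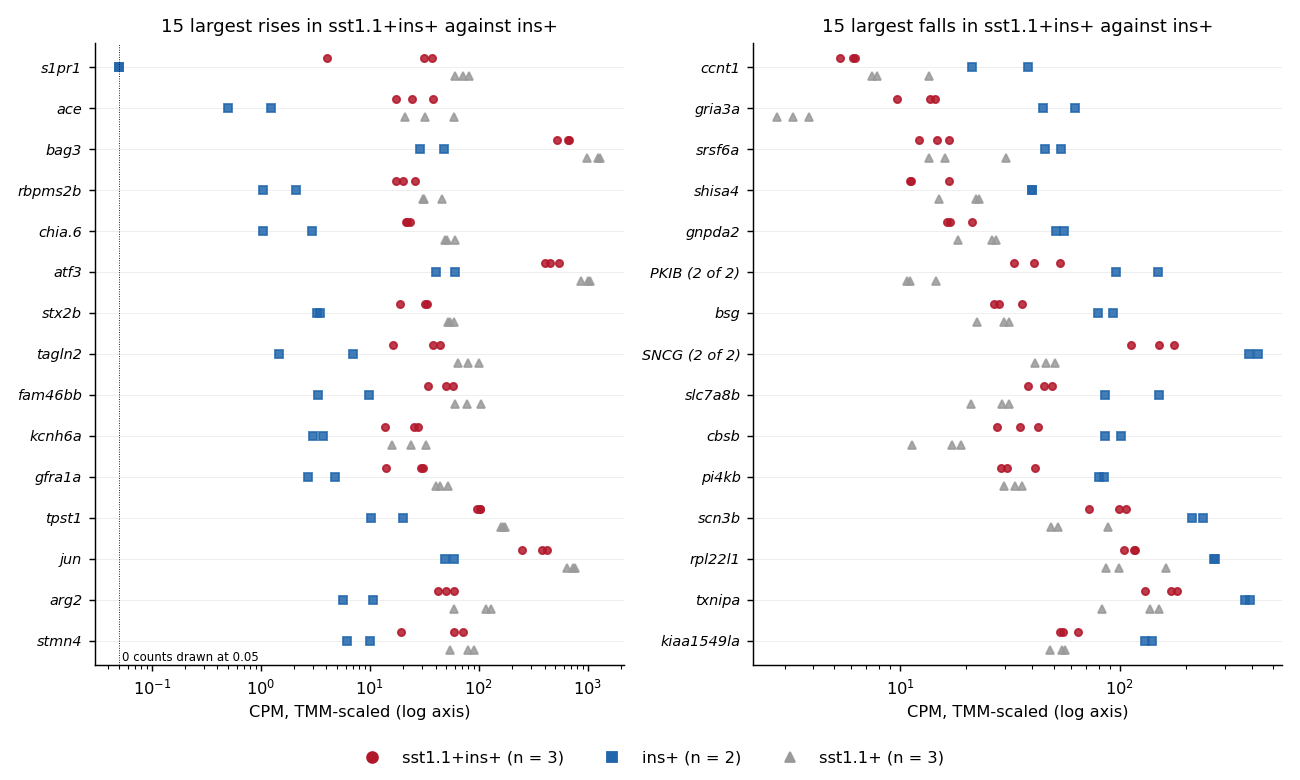
CPM in each library (TMM-scaled, log axis) is shown for the 15 largest rises (left) and the 15 largest falls (right) of sst1.1+ins+ against ins+ cells, with circles for sst1.1+ins+ (n = 3), squares for ins+ (n = 2) and triangles for sst1.1+ (n = 3). Separate ranges were a condition for choosing these genes, so no gene's sst1.1+ins+ and ins+ points overlap. The gene s1pr1, with 0 counts in both ins+ libraries, is drawn at 0.05 CPM there.

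Of 34 ion channel genes, 2 rose (5.88%) and 1 fell (2.94%), against 0.755% and 0.164% of all genes. The ERG-type potassium channel gene kcnh6a was at 13.8, 27.6 and 25.5 CPM in sst1.1+ins+ libraries and at 3.69 and 2.99 CPM in ins+ libraries, 6.65-fold higher (adjusted p = 0.0210, lost in 4 of the 8 fits). The calcium channel subunit gene cacna2d2a averaged 64.4 ± 11.5 against 26.3 ± 0.0969 CPM, 2.45-fold higher (adjusted p = 0.0296, lost in 5). The sodium channel subunit gene scn3b averaged 92.4 ± 17.9 against 226 ± 18.2 CPM, 2.44-fold lower (adjusted p = 0.0478, lost in 6). All 3 had separate ranges. The potassium channel gene kcnk5b, not on the list, was also called higher, at 3.21, 10.3 and 5.36 CPM against 0 counts in both ins+ libraries (adjusted p = 0.0173). It passed the expression filter only through libraries of the other groups, and its call was kept in 13 of the 18 other fits.

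Of 45 genes of regulated exocytosis 1 rose, the membrane syntaxin gene stx2b, at 33.6, 32.1 and 18.9 CPM in sst1.1+ins+ libraries and at 3.29 and 3.52 CPM in ins+ libraries, 8.27-fold higher (log2 fold change 3.05 ± 0.34, adjusted p = 0.00126). Its call held in all 8 fits without 1 library and was lost with voom (adjusted p = 0.107). The calcium sensor relative syt4 narrowly missed the threshold, with 60.0 ± 6.59 against 30.7 ± 2.03 CPM (adjusted p = 0.0521). The complexin gene cplx2 averaged 13.7 ± 0.518 against 30.9 ± 8.71 CPM (adjusted p = 0.206). Another complexin gene, CPLX1 (2 of 2), was outside the list because its symbol has another form. It went the other way, with 11.7 ± 2.92 against 0.789 ± 0.129 CPM, 14.8-fold higher (adjusted p = 0.00334). Its call was kept in 17 of the 18 other fits. The median of this list was -0.05, and its 1 call made 2.22% of the list, against 0.755% of all genes called higher. At an unadjusted p under 0.05, 5 of the list were higher and 7 lower, while DESeq2 called 3 higher and voom 0.

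None of 19 hormone and transmitter receptor genes passed in edgeR (3 had an unadjusted p under 0.05, DESeq2 called 1 and voom 0). Of 25 glutamate, GABA and glycine receptor genes gria3a alone passed, as a fall (4%, against 0.164% of all genes). The glucagon receptor gene gcgra averaged 27.6 ± 7.77 CPM in sst1.1+ins+ cells and 64.2 ± 29.9 CPM in ins+ cells, with every sst1.1+ins+ library lower (adjusted p = 0.405). In sst1.1+ cells gcgra was at 0.226 ± 0.221 CPM.

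Of 42 genes of glucose uptake and glycolysis none passed edgeR's test, with 2 higher and 4 lower at an unadjusted p under 0.05. DESeq2 called 1 higher and 1 lower, and voom 2 lower. The glucose transporter gene slc2a2, the main glucose entry route of beta cells in rodents, was at 336, 352 and 336 CPM in sst1.1+ins+ libraries and at 516 and 492 CPM in ins+ libraries (log2 fold change -0.56 ± 0.14, adjusted p = 0.118). The pyruvate carboxylase gene pcxb averaged 256 ± 17.9 against 562 ± 60.5 CPM (adjusted p = 0.193). Both had separate ranges, and the list's median, -0.01, lay near 0.

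Of 52 amino acid transporter genes 1 rose (1.92%) and 2 fell (3.85%), against 0.755% and 0.164% of all genes. The neutral amino acid transporter gene slc38a2, a stress-responsive gene in mammals, averaged 158 ± 31.8 against 66.4 ± 3.65 CPM, 2.38-fold higher (adjusted p = 0.0133). The system L transporter gene slc43a2b was at 485, 361 and 439 CPM in sst1.1+ins+ libraries against 820.0 and 1029.7 CPM in ins+ libraries, 2.16-fold lower (adjusted p = 0.0133), and slc7a8b averaged 44.0 ± 5.51 against 118 ± 46.5 CPM, 2.69-fold lower (0.0358). The calls of slc38a2, slc43a2b and slc7a8b were lost in 3, 3 and 5 of the 8 fits. The summed level of the list was 2875 to 2971 CPM in sst1.1+ins+ libraries and 4049 and 4488 CPM in ins+ libraries.

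Of 79 ribosomal protein genes 1 fell (1.27%, against 0.164% of all genes). The sst1.1+ins+ libraries were all below both ins+ libraries for 53 of them, against 14.0% of all genes, and the median log2 fold change was -0.28. The called member was the paralog gene rpl22l1, at 104, 116 and 117 CPM in sst1.1+ins+ libraries against 269.8 and 267 CPM in ins+ libraries, 2.39-fold lower (adjusted p = 0.0313, lost in 6 of the 8 fits). Among the members below the ins+ libraries without passing was rplp0, with 888 ± 109 against 1806 ± 138 CPM (adjusted p = 0.0898). Their sum was 57542 to 68493 CPM in sst1.1+ins+ libraries, 72882 and 73715 CPM in ins+ libraries and 57240.1 to 65718 CPM in sst1.1+ libraries. The number called depended on the fit: voom called 14 lower, DESeq2 21, and the fit without sst1.1+ replicate 3 called 11.

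None of 43 proteasome genes passed edgeR's test, with 11 higher and 0 lower at an unadjusted p under 0.05, and DESeq2 called 4 higher and voom 0. The proteasome degrades ubiquitin-tagged proteins, and 25 of its genes had all sst1.1+ins+ libraries above both ins+ libraries, against 16.4% of all genes, with a list median of 0.35. An example is psmb7, a catalytic subunit gene, with 143 ± 2.52 against 97.4 ± 0.791 CPM (log2 fold change 0.55 ± 0.16, adjusted p = 0.169). Of 99 nuclear respiratory chain genes 40 were above in every library, with a median of 0.22. The 1 member called was lower, however (1.01%, against 0.164% of all genes). This gene, ndufa4l2a, a paralog of a respiratory complex subunit gene, stood at 509, 406 and 515 CPM in sst1.1+ins+ libraries against 859 and 931 CPM in ins+ libraries, 1.88-fold lower (adjusted p = 0.0221, lost in 5 of the 8 fits), with 95.6 ± 11.7 CPM in sst1.1+ cells.

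Redox genes gave 1 call of 33 tested, a fall (3.03%, against 0.164% of all genes). It was txnipa, for a thioredoxin-binding protein whose mammalian counterpart is induced by glucose in beta cells, at 129.8, 181 and 171 CPM in sst1.1+ins+ libraries against 372 and 389.9 CPM in ins+ libraries, 2.37-fold lower (adjusted p = 0.0337, lost in 6 of the 8 fits). The glutathione peroxidase gene gpx3 averaged 338 ± 46.7 against 597 ± 79.7 CPM (adjusted p = 0.0714). No member passed edgeR's test among 13 mitochondrially encoded, 24 vacuolar ATPase, 55 vesicle coat and ER translocation and 74 translation factor genes. At an unadjusted p under 0.05, 0, 3, 6 and 2 members were higher and 3, 5, 6 and 11 lower. DESeq2 called 0, 1, 1 and 0 higher and 0, 2, 3 and 4 lower, and voom 0 higher and 0, 1, 1 and 3 lower. Every sst1.1+ins+ library was above both ins+ libraries for 3, 3, 15 and 7 members and below for 4, 11, 9 and 20, against 16.4% and 14.0% of all genes. The translation factor genes summed to 13204 to 15495 CPM in sst1.1+ins+ libraries, 18188 and 18445 CPM in ins+ libraries and 13485 to 18139 CPM in sst1.1+ libraries.

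**Figure D5:**
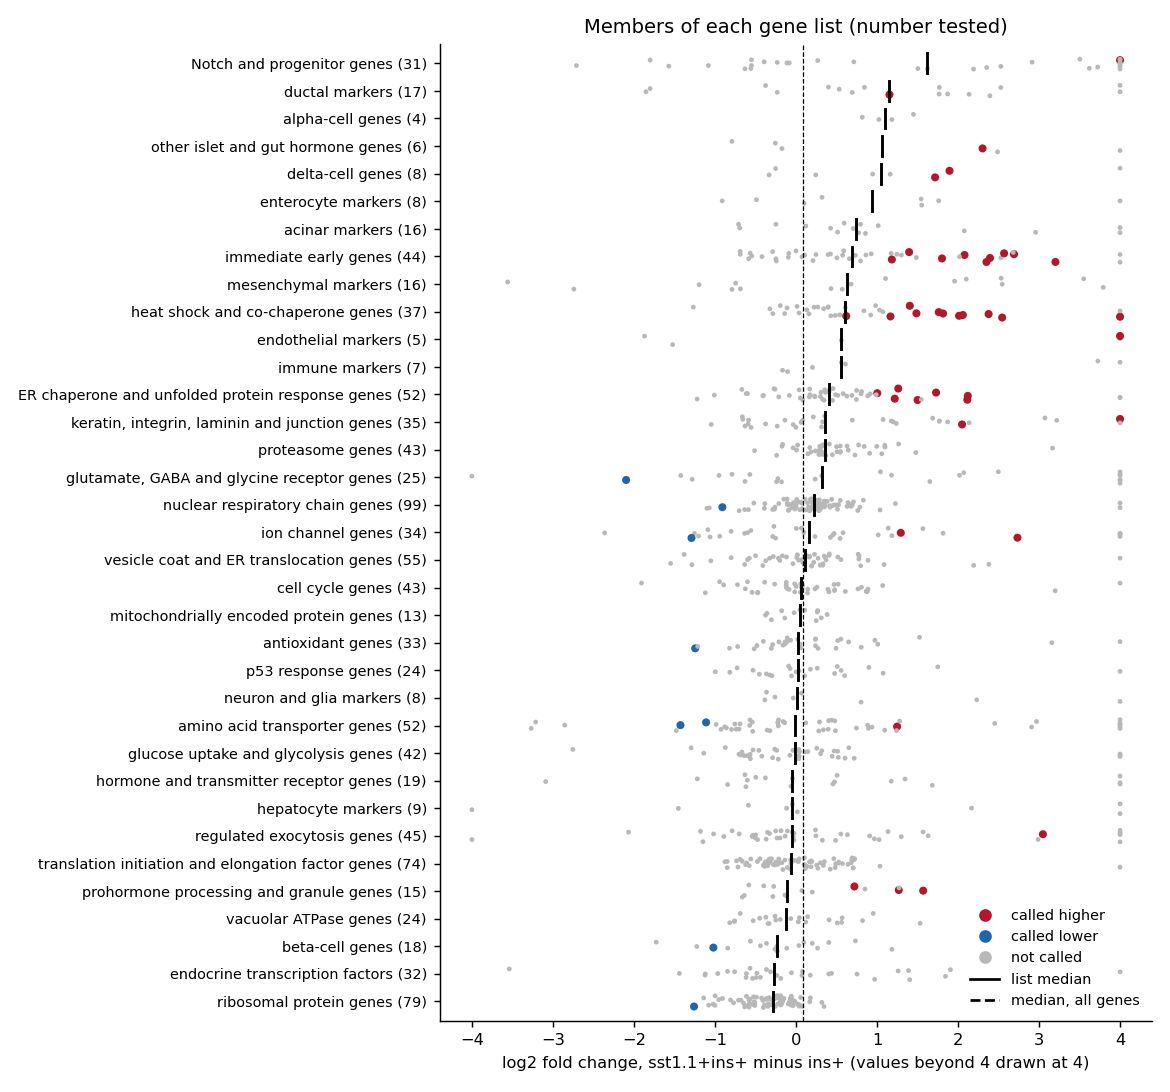
Each point is the log2 fold change of sst1.1+ins+ over ins+ cells for 1 tested gene of a list, with called genes in red (higher) and blue (lower), list medians as solid bars and the median of all genes, 0.08, as the dashed line; values beyond 4 are drawn at 4. The immediate early, heat shock and ER lists hold 27 of the 50 called members, while the ribosomal list sits lowest, with a median of -0.28.

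Cell cycle and p53 response genes gave no call in edgeR, of 43 and 24 tested, with medians of 0.06 and 0.02 against 0.08 for all genes. At an unadjusted p under 0.05, 3 and 4 of them were higher, and DESeq2 called 0 and 1 and voom 0. Of all 16418 genes, 1981 were under that p in either direction, 771 were called by DESeq2 and 177 by voom. Of 31 Notch pathway and progenitor genes notch1b was called higher (3.23%, against 0.755% of all genes). That gene had 0 counts in both ins+ libraries and passed the expression filter only through libraries of the other groups. At an unadjusted p under 0.05, 8 of the list were higher and 0 lower, while DESeq2 called 6 higher and voom 0. Members at 0 in both ins+ libraries, 6 of the 31, could not come out lower, so these counts carry the same limit. The list median was 1.62, or 0.71 with the 6 members at 0 in both ins+ libraries set at the floor. The Notch target gene her6 averaged 5.49 ± 0.0333 against 0.486 ± 0.475 CPM (adjusted p = 0.0815), with 3 and 14 counts in the ins+ libraries.

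Of 35 keratin, integrin, laminin and junction genes 2 rose, itga6b and cldnh (5.71%, against 0.755% of all genes). Of the 2, cldnh had 0 counts in both ins+ libraries and passed the expression filter only through libraries of the other groups, which limits this share. At an unadjusted p under 0.05, 10 of the list were higher and 1 lower, while DESeq2 called 7 higher and voom 1. The integrin gene itga6b, for a laminin receptor subunit, was at 186, 204 and 189 CPM in sst1.1+ins+ libraries and at 51.3 and 41.9 CPM in ins+ libraries, 4.14-fold higher (log2 fold change 2.05 ± 0.16, adjusted p = 0.000116), with 377 ± 10.2 CPM in sst1.1+ cells. The groups were far apart, and the call held in all 8 fits without 1 library.

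Markers of other pancreatic cells were looked for in both groups. Ductal markers summed to 722 to 977 CPM in sst1.1+ins+ libraries, 442 and 491 CPM in ins+ libraries and 827 to 1209 CPM in sst1.1+ libraries. Of 17 tested, the secreted chaperone gene clu was called, at 216 ± 29.1 against 96.9 ± 32.7 CPM (adjusted p = 0.0408, lost in 7 of the 8 fits). This 1 call made 5.88% of the list, against 0.755% of all genes called higher. At an unadjusted p under 0.05, 7 of the list were higher and 0 lower, while DESeq2 called 6 higher and voom 1. The list median was 1.15, against 0.08 over all genes. Every sst1.1+ins+ library was above both ins+ libraries for 8 of the 17 and below for 1, against 16.4% and 14.0% of all genes. The epithelial genes krt18 (91.3 ± 36.1 against 26.8 ± 15.4 CPM, adjusted p = 0.0829), krt8 (163 ± 9.84 against 101 ± 21.5 CPM, 0.171) and epcam (77.1 ± 52.4 against 21.1 ± 8.84 CPM, 0.128) were higher in each sst1.1+ins+ library without passing. The part of ductal transcripts in the differences above was not tested.

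Acinar markers summed to 48.2 to 118 CPM in sst1.1+ins+ libraries and 26.3 and 78.9 CPM in ins+ libraries, with no call in 16 by edgeR (2 at an unadjusted p under 0.05) and 1 by DESeq2. Endothelial markers summed to 33.0 to 64.8 CPM and 20.5 and 27.8 CPM. Of the 5 tested, s1pr1 was called higher (20%, against 0.755% of all genes). This gene passed the expression filter only through libraries of the groups other than ins+. In sst1.1+ins+ replicates 1, 2 and 3 it held 36.7, 31.7 and 4.08 CPM of list sums of 64.8, 55.7 and 33.0 CPM, and in ins+ libraries 0. Of the 19 genes listed, 10 were at 0 in all sst1.1+ins+ libraries and 12 in both ins+ libraries, pecam1 and fli1a among both. Immune markers (189 to 270.2 against 213 and 249.9 CPM) and mesenchymal markers (22.7 to 35.5 against 29.8 and 30.6 CPM) overlapped between the groups, with no call in 7 and 16 genes tested and 0 at an unadjusted p under 0.05. Hepatocyte, enterocyte, erythrocyte and neuron and glia markers gave no call in 9, 8, 2 and 8 genes tested, with 0, 1, 0 and 3 at an unadjusted p under 0.05. In these 6 lists DESeq2 called 2 genes, both neuron and glia markers, and voom 0.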

How the data were processed

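The data were bulk RNA-seq of sorted cells: dissociated pancreas, fluorescence sorting into lysis buffer, full-length Smart-Seq2 cDNA without molecular identifiers and NextSeq500 sequencing, per the labels. The deposited values are raw counts of reads per gene. Trim Galore, HISAT2, the GRCz11 assembly and featureCounts are named in the submitters' processing notes. Tool versions, strand setting, annotation release and the handling of multi-mapped reads were not given in the sources used here, so near-identical or overlapping genes are uncertain. The table held 32046 rows: 31953 genes, 92 ERCC controls and 1 EGFP row, the last 2 kinds left out of totals and tests. Names follow the deposited table, and 26121 gene identifiers were found in a separate names table.

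Counts were fitted in R 4.3.3 with edgeR 4.0.16: the default expression filter by group, TMM factors, 3 group means fitted to all 8 libraries (5 residual degrees of freedom), the quasi-likelihood F-test and Benjamini-Hochberg adjustment over all 16418 genes at 0.05. The standard error (SE) is the absolute log2 fold change over the root of F. The script was tested on simulated counts. Alternatives were other scalings, DESeq2 1.42.0, limma 3.58.1 voom, other filters, a replicate block, the 2 groups alone, leaving out each library and, added after seeing the data, thinned counts. Deviations of same-numbered libraries from their group means correlated at -0.04 to 0.03 over all tested genes. That check cannot exclude a shared sort or batch, and the labels do not say whether replicate numbers pair the libraries.

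Genes named were the 15 largest rises and falls with a call, separate ranges, at least 20 CPM on average in the group with more and a proper symbol, plus up to 4 members with the smallest p of each of 36 gene lists, the called members of the stress lists and a set of islet genes. Kinases with names like those of ribosomal protein genes were left out of that list. The comparison, members and lists were chosen with earlier results of these data known.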

Additional observations from a re-analysis of the deposited data

Results flagged for a closer look

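The EGFP reporter transcript, which entered no test, averaged 3411 CPM in sst1.1+ins+ cells against 239 CPM in ins+ cells, the group whose label names the insulin reporter alone. It was noted because it is a signal outside the gene tests and above the ins+ libraries, which held 3972 and 4767 EGFP counts. The cells were sorted on this reporter, so its difference is not independent of the choice of groups.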

How the results depend on the processing

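Counts of calls depended on the setting. DESeq2 called 771 genes (560 higher, 211 lower), and no low-count filter 560 (372 and 188). Voom called 177 (69 higher, 108 lower) and the 2 groups alone 134 (81 and 53). A filter of 5 CPM in 2 or more libraries gave 45 lower genes. Leaving out 1 library gave 59 to 192 genes, 57 to 181 higher and 2 to 65 lower. Called list members numbered 50, against 144 with DESeq2, 124 without the filter and 28 to 64 without 1 library. With the replicate block 181 genes were called, 118 higher and 63 lower. Whether equal replicate numbers mark a shared sort or batch is not in the labels. Thinned counts gave 157 calls. Leaving out ins+ replicate 1 moved the median of all genes by 0.18. No named gene that was called in the main fit or in the other fit changed its sign between them. Sign changes of uncalled named genes were not counted. Of the 151 genes, 33 were called in all 18 other fits. The cause of these shifts was not tested.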

Other observations

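Several called genes outside the lists and the naming rule were chosen after their values were seen, so they stand for no group of genes. The ubiquitin gene ubb averaged 292 ± 81.0 CPM in sst1.1+ins+ cells and 108 ± 17.8 CPM in ins+ cells (SD, n = 3 and 2), 2.70-fold higher (adjusted p = 0.0210). The HSP40 gene DNAJA4 averaged 334 ± 25.2 against 65.7 ± 2.94 CPM, 5.08-fold higher (adjusted p = 0.000116). The HSP70 partner gene hspbp1 was 2.57-fold higher (0.0173) and zfand2a, a stress-induced zinc-finger gene, 1.89-fold higher (0.0402). In each of the 4 genes the ranges were apart, and the call of DNAJA4 held in all 8 fits that left out 1 library, while those of ubb, hspbp1 and zfand2a were lost in 5, 3 and 7.

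The neurotrophin gene bdnf was at 83.5, 67.4 and 72.9 CPM in sst1.1+ins+ libraries against 17.4 and 22.01 CPM in ins+ libraries, 3.78-fold higher (adjusted p = 0.00126), and its call held in all 8 fits. The Wnt antagonist gene wif1 averaged 299 ± 24.1 against 162 ± 17.97 CPM (adjusted p = 0.0210), the beta-catenin gene ctnnb1 177 ± 38.8 against 72.5 ± 2.38 CPM (0.0210) and the Wnt target gene axin2 15.6 ± 5.93 against 2.85 ± 0.786 CPM (0.0485), with calls lost in 5, 5 and 8 of those fits. The MAP kinase phosphatase genes DUSP8 (2 of 2) and dusp4 were 5.58-fold (adjusted p = 0.0177) and 7.14-fold higher (0.0463), and the sprouty gene spry4 4.82-fold (0.0244), with calls lost in 3, 7 and 4 fits. The long noncoding RNA malat1, retained in nuclei, averaged 25954 ± 2985 against 38816 ± 498 CPM, 1.496-fold lower (adjusted p = 0.0296, lost in 5).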
